A study of Homo sapiens with 9 samples.

Results

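Collagens are secreted or membrane-bound proteins of the extracellular matrix. Each molecule is a rope of intertwined chains, which may be copies of the same chain, and each kind of chain is the product of a separate gene. Fibrillar collagens build the cables of stroma, bone, skin and cartilage, type IV collagens form the sheet of the basement membrane on which epithelial cells rest, and other classes form beaded filaments, decorate fibrils, anchor epithelium or span the plasma membrane. In breast tumors the bulk of fibrillar collagen is made by fibroblasts, while carcinoma cells make basement membrane and several minor collagens themselves.

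The collagen chain genes were taken as all probe sets whose platform gene symbol was COL, a number, A and a number, which gave 112 of the 54675 probe sets on the array and 43 of 19775 genes. RNA of 3 human breast cancer lines was hybridized to Affymetrix Human Genome U133 Plus 2.0 arrays, with 3 arrays per line. B6TC is GFP positive and estrogen independent, and the labels describe it as a fusion of the other lines. It descends from B6, a line grown out of GFP-expressing cells from mouse bone marrow, and was established from a tumor that B6 formed in a nude mouse without added estrogen. MDA-MB-231/GFP/Neo is an ER negative, G418-resistant line and is a single clone of GFP-transfected cells. ZR-75-1/GFP/puro is an ER positive, puromycin-resistant line that carries GFP as well. All lines were grown in McCoy's 5A medium with fetal bovine serum. The arrays are labelled technical replicates, with no separate cultures named, so every p-value below measures only the spread between technical replicates.

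The luminal and mesenchymal markers followed the labels of the lines, with 1 array that stood apart. Over 8 luminal markers (ESR1, GATA3, FOXA1, CDH1, EPCAM, KRT19, KRT8 and TFF1) the log2 of the summed level was 10.24 to 11.40 among B6TC arrays, 10.26 to 10.35 among MDA-MB-231 arrays and 15.30 to 15.37 among ZR-75-1 arrays. Over 6 mesenchymal markers (VIM, CAV1, EGFR, CD44, AXL and MSN) it was 14.63 to 14.66 among B6TC arrays, 14.60 to 14.65 among MDA-MB-231 arrays and 8.93 to 9.0 among ZR-75-1 arrays. The third B6TC array was higher in luminal genes than the others of that line, with CDH1 at 3.38, 3.26 and 6.89 and TFF1 at 5.04, 4.98 and 9.08. Of 7 fibroblast markers (PDGFRA, PDGFRB, DCN, LUM, FAP, DPT and THY1) only THY1 reached a mean of 6 in every line, at 6.89 among B6TC arrays, 8.25 among MDA-MB-231 arrays and 6.20 among ZR-75-1 arrays. PDGFRB read 5.72 on B6TC arrays, 6.01 on MDA-MB-231 arrays and 5.58 on ZR-75-1 arrays, and LUM and FAP were under 4 on all arrays. The fibroblast list summed to 7.96 to 8.06 among B6TC arrays, 8.79 to 8.92 among MDA-MB-231 arrays and 7.69 to 7.79 among ZR-75-1 arrays. Of the endothelial markers (PECAM1, VWF, CDH5 and KDR) only PECAM1 reached 6, and of the leukocyte markers PTPRC, CD3E and CD14 none did. In such bulk RNA, fewer cells of a kind and less RNA per cell cannot be told apart.

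The values are log2 expression levels as deposited. A probe set was tested where it reached a log2 level of 6 on at least 3 of the 9 arrays, and a call needed an adjusted p of at most 0.05 (limma, two-sided, Benjamini and Hochberg over all 21095 probe sets tested). This left 29 collagen probe sets of 16 genes, each gene represented by its tested probe set with the highest mean. At the representative probe sets, only COL1A1, COL5A1, COL11A2 and COL12A1 reached the level of 6 on all 9 arrays. COL1A1 did so at no other probe set. The other 12 passed through some of the lines alone, so that a difference from the remaining line was built into their being tested, and counts over the tested genes cannot speak for the family. Levels of different probe sets cannot be set against each other, so only differences between lines are compared.

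The genes on which the results turn include a pair of neighbors that share a start region. COL4A1 and COL4A2 lie head to head, with 126 bases between their start sites, so that stretch is printed whole. The other stretches are the 250 bases before the start sites of COL4A5, whose neighbor COL4A6 starts 379 bases away in the opposite direction, of COL13A1, which differed most between lines, and of COL12A1 and COL6A2, which differed most between B6TC and MDA-MB-231 among the representative probe sets. All come from RefSeq promoters of GRCh38.p14, in which 31 of the 43 genes have an entry, at chr13:110307158-110307283 (plus strand), chrX:108439588-108439837 (plus), chr10:69801656-69801905 (plus), chr6:75206054-75206303 (minus) and chr21:46097862-46098111 (plus). Capitals mark the cores of common promoter elements on either strand. These are the CCAAT box (reversed as ATTGG), the GC box with the letters GGGCGG (which reverse to CCGCCC) and the TATA box with the letters TATAAA (which reverse to TTTATA).
COL4A1-COL4A2: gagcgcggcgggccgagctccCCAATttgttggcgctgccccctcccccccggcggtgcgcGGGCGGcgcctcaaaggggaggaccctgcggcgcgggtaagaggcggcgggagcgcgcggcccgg
COL4A5: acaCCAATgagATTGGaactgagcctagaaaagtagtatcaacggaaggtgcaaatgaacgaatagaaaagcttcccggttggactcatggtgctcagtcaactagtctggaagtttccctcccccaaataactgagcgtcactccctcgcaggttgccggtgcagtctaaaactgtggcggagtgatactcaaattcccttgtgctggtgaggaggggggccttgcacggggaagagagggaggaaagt
COL13A1: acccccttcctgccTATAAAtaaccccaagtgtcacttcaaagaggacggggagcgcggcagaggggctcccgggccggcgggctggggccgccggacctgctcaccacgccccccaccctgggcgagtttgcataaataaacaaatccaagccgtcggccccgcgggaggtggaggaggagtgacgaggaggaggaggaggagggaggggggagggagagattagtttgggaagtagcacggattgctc
COL12A1: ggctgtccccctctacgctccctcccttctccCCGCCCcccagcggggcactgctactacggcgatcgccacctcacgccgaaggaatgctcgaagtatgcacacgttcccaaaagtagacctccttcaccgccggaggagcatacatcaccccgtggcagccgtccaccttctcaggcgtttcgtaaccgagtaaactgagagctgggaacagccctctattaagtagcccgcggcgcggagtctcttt
COL6A2: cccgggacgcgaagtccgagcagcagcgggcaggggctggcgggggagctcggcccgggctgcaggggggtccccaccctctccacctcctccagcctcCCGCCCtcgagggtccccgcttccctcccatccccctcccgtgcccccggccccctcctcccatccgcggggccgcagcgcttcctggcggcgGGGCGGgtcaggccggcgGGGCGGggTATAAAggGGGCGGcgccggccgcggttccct

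The shared COL4A1-COL4A2 stretch was 80.2% G and C and held 1 CCAAT and 1 GC box match and 0 TATA box matches. In windows of that length before 35116 start sites, 21.1% held the CCAAT letters, 34.6% the GC box and 5.87% the TATA box. The COL4A5 stretch held 2 CCAAT matches, and the COL6A2 stretch 4 GC box matches beside its TATAAA. COL13A1 held 1 TATAAA and COL12A1 1 GC box. Over all windows of 250 bases the shares were 32.0% for CCAAT, 42.6% for the GC box and 10.7% for the TATA box. These matches describe letters in a window and are neither binding sites nor causes.

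Against MDA-MB-231, the collagen genes of B6TC went both ways. Of the 16 tested genes, 11 differed, 5 higher and 6 lower, where 65.0% of all 10751 tested genes differed, 36.5% higher and 28.5% lower. COL12A1, COL8A1, COL27A1, COL4A5 and COL9A3 were higher in B6TC, and COL4A2, COL5A1, COL6A1, COL6A2, COL7A1 and COL18A1 were lower. The median difference was −0.05, against 0.04 over all genes, while the median size of the difference was 0.51, against 0.25. At least 2-fold were 1 gene higher (COL12A1) and 2 lower (COL6A2 and COL18A1), where 2.71% of all genes were higher and 1.04% lower by that much. The arrays of the lines did not overlap at 13 of 16 genes, as at 71.0% of all genes. Without the third B6TC array 10 genes differed, 5 in each direction.

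Against ZR-75-1 B6TC differed at 14 of 16 genes, 9 higher and 5 lower, where 84.4% of all genes differed, 42.8% higher and 41.6% lower. The median difference was 0.74 over the collagen genes, against 0.00 over all genes, and the median size was 1.39, against 0.61. At least 2-fold were 7 genes higher (COL13A1, COL8A1, COL4A2, COL4A1, COL6A1, COL27A1 and COL6A2) and 3 lower (COL9A3, COL4A5 and COL18A1), where 17.6% of all genes were higher and 14.0% lower by that much. The 7 higher genes all passed the filter on their B6TC and MDA-MB-231 arrays and on no ZR-75-1 array. Among the 83 collagen probe sets below the filter, a fit with no filter called 14 higher and 14 lower, the median being −0.01. The arrays did not overlap at 14 of 16 tested genes, as at 87.5% of all genes. Without the third B6TC array 14 genes were called, 9 higher and 5 lower.

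The parental lines differed in a like manner. MDA-MB-231 differed from ZR-75-1 at 15 of 16 genes, 10 higher and 5 lower, where 84.4% of all genes differed, 42.5% higher and 41.9% lower. COL11A2 alone was not called. The median difference was 0.89, against 0.00 over all genes. The comparisons share arrays, so their counts are not independent of each other.

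**Figure D1:**
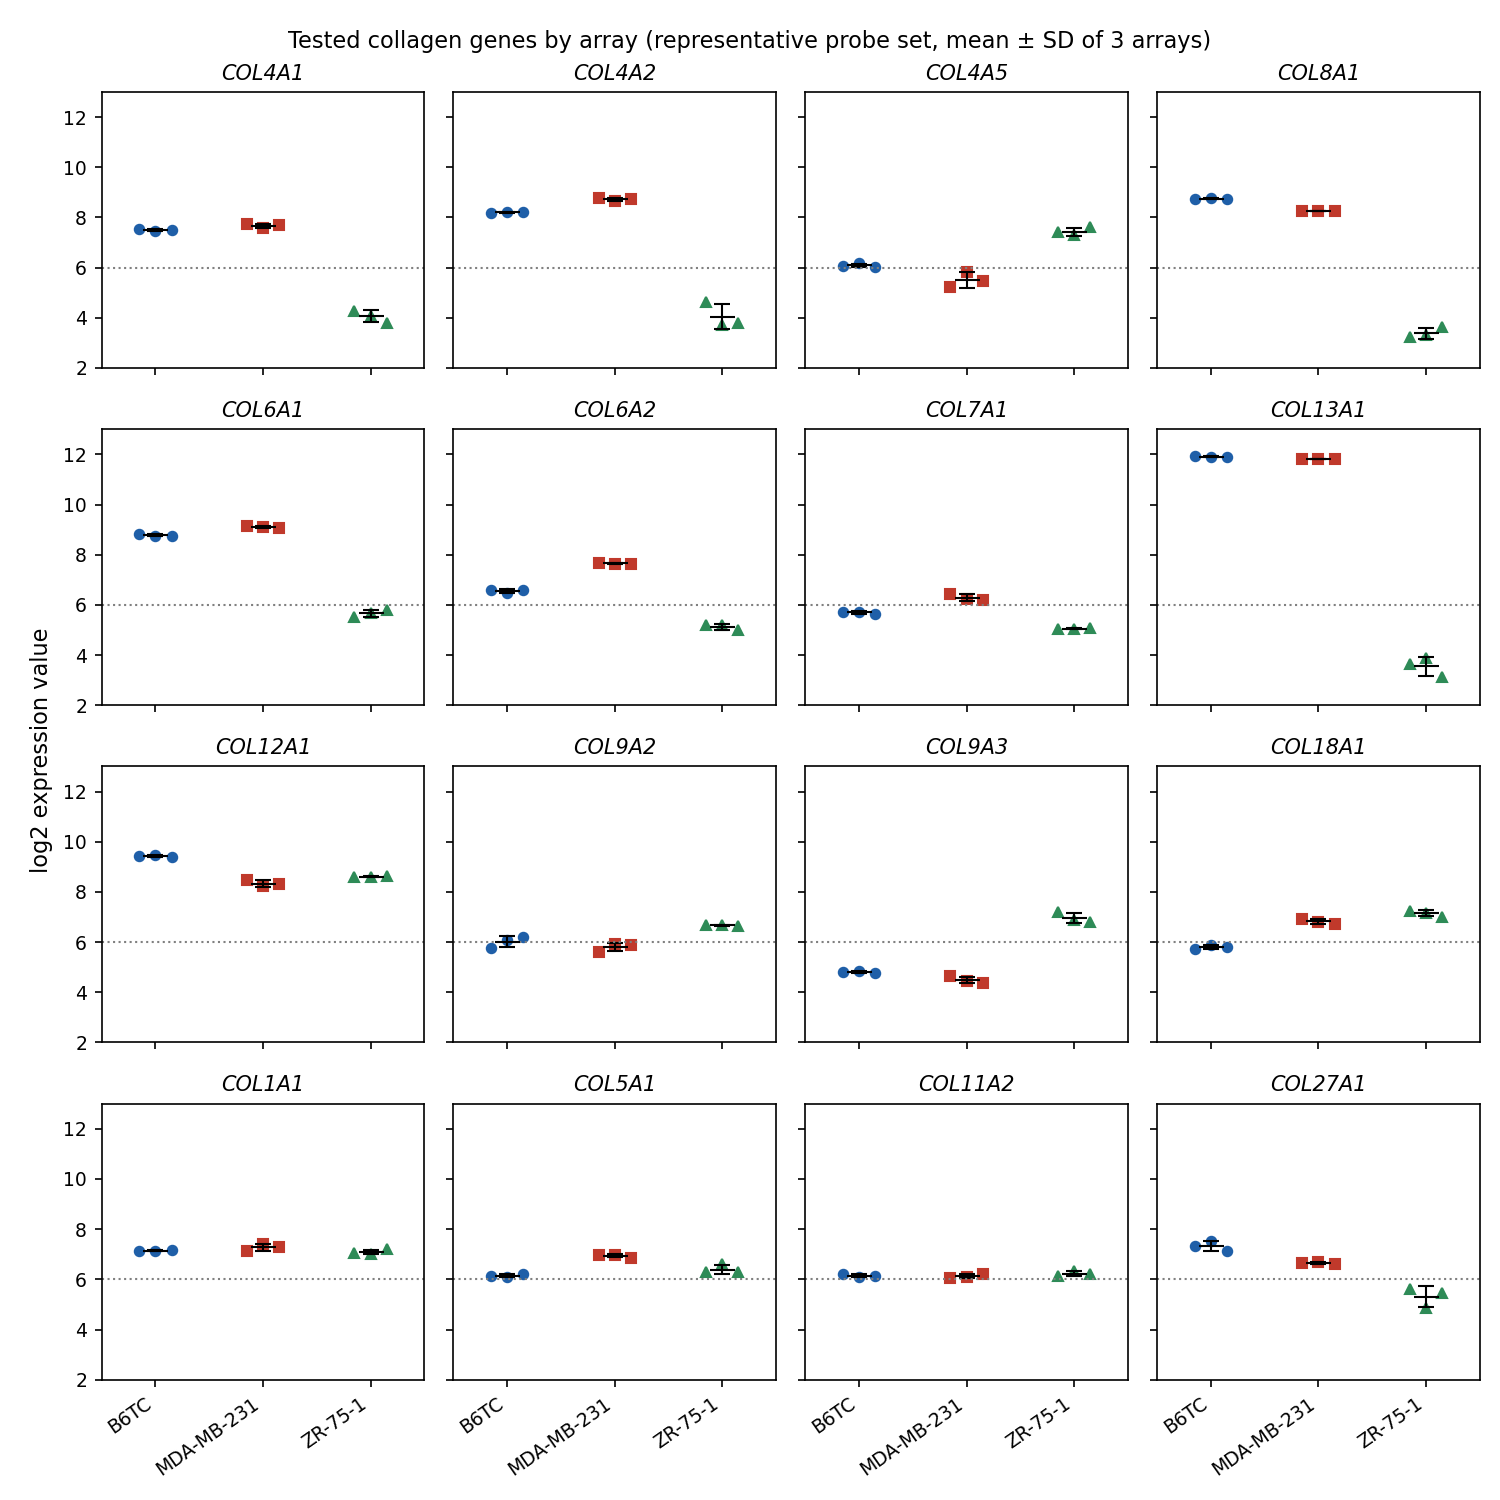
Log2 level of the representative probe set of each of the 16 tested collagen genes on every array, with the line mean and its SD over 3 arrays and the filter level of 6 as a dotted line. COL13A1, COL8A1, COL4A1, COL4A2 and COL6A1 sit high in B6TC and MDA-MB-231 and below 6 in ZR-75-1, and COL9A3 shows the opposite.

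The basement membrane chains COL4A1 and COL4A2, which assemble with each other into the most widespread type IV collagen, were high in B6TC and MDA-MB-231 and below the filter level in ZR-75-1. COL4A1 read 7.55, 7.46 and 7.50 on B6TC arrays, 7.74, 7.57 and 7.68 on MDA-MB-231 arrays and 4.29, 4.09 and 3.81 on ZR-75-1 arrays. COL4A2 read 8.18, 8.21 and 8.21 on B6TC arrays, 8.78, 8.64 and 8.73 on MDA-MB-231 arrays and 4.62, 3.72 and 3.78 on ZR-75-1 arrays. For both genes every B6TC array lay below every MDA-MB-231 array and far above every ZR-75-1 array. COL4A1 exceeded ZR-75-1 by 3.44 (SE 0.10, limma adjusted p = 3.5e-10), a 10.8-fold difference. COL4A2 exceeded ZR-75-1 by 4.17 (SE 0.19, limma adjusted p = 8.5e-09), a 17.9-fold difference.

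Against MDA-MB-231 the same pair was lower in B6TC, by less. COL4A2 fell by 0.52 (SE 0.19, limma adjusted p = 0.037), and a second probe set fell by 0.96 (SE 0.09, limma adjusted p = 9.2e-06). The call at the first probe set did not survive leaving out any single array of B6TC or MDA-MB-231, with limma adjusted p between 0.0617 and 0.0945, although the difference stayed between −0.55 and −0.49. Its standard error is shared by the lines and includes the spread of the ZR-75-1 arrays (SD 0.50). COL4A1 differed by −0.16 (SE 0.10, limma adjusted p = 0.202) and so was not called. Its standard error also includes the ZR-75-1 spread (SD 0.24). The same difference was called in a fit to B6TC and MDA-MB-231 alone (SE 0.057, limma adjusted p = 0.0393) and in robust regression (limma adjusted p = 0.0225). Its second probe set, at 6.03, 6.03 and 6.03 in B6TC and 6.71, 6.76 and 6.92 in MDA-MB-231, fell by 0.77 (SE 0.13, limma adjusted p = 4.8e-04).

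COL4A5, a type IV chain of the kidney glomerulus and other specialized basement membranes whose loss causes Alport syndrome, ran the other way. It read 6.08, 6.17 and 6.03 on B6TC arrays, 5.23, 5.84 and 5.46 on MDA-MB-231 arrays and 7.41, 7.29 and 7.60 on ZR-75-1 arrays. B6TC lay between the parental lines with no overlap on either side. The difference was 0.58 from MDA-MB-231 (SE 0.14, limma adjusted p = 0.00391) and −1.34 from ZR-75-1 (SE 0.14, limma adjusted p = 5.3e-06). These values are from probe set 213110_s_at. Another COL4A5 probe set, 234387_at, stayed below the filter, and its B6TC arrays overlapped those of both parental lines. With no filter it differed by −0.07 from MDA-MB-231 (limma adjusted p = 0.745) and by −0.33 from ZR-75-1 (limma adjusted p = 0.074). The other 3 type IV genes, COL4A3, COL4A4 and COL4A6, had no tested probe set.

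COL13A1 gave the widest difference of the family. It encodes a collagen that spans the plasma membrane at cell adhesion sites and at the neuromuscular junction. Its probe set 211343_s_at read 11.95, 11.90 and 11.88 on B6TC arrays, 11.81, 11.83 and 11.81 on MDA-MB-231 arrays and 3.63, 3.88 and 3.14 on ZR-75-1 arrays. ZR-75-1 was near the bottom of the scale on all arrays. The excess of B6TC was 8.36 (SE 0.15, limma adjusted p = 8.7e-12), a 328-fold ratio against a line that may be near background. The other 2 tested probe sets gave smaller excesses over ZR-75-1, of 2.08 (SE 0.085, limma adjusted p = 3.5e-09) at 208535_x_at and 2.62 (SE 0.094, limma adjusted p = 1.3e-09) at 211809_x_at.

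Relative to MDA-MB-231 the COL13A1 probe sets did not give 1 answer. The first differed by 0.09 (SE 0.15, limma adjusted p = 0.598), although its B6TC arrays all lay above the MDA-MB-231 arrays. The other probe sets fell, by 0.53 (SE 0.085, limma adjusted p = 3.6e-04) and by 0.66 (SE 0.094, limma adjusted p = 1.5e-04). Both have names ending in _x_at, the suffix Affymetrix gives to probe sets whose probes may bind other transcripts.

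COL8A1, a short-chain collagen of network-forming sheets under endothelium and in the cornea, read 8.72, 8.78 and 8.74 on B6TC arrays, 8.24, 8.24 and 8.24 on MDA-MB-231 arrays and 3.22, 3.30 and 3.64 on ZR-75-1 arrays. It was highest in B6TC on every array. The difference was 0.51 from MDA-MB-231 (SE 0.09, limma adjusted p = 6.6e-04) and 5.36 from ZR-75-1 (SE 0.09, limma adjusted p = 6.8e-12), or 1.42-fold and 41.1-fold. Its other probe sets stayed below the filter and were not called against MDA-MB-231 in a fit with no filter. The difference was 0.22 at 214587_at (SE 0.19, limma adjusted p = 0.428), with overlapping arrays, and 0.03 at 221152_at. Its partner chain COL8A2 had no tested probe set.

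The beaded filament chains COL6A1 and COL6A2, which with COL6A3 build the type VI microfilaments around cells, stood between the parental lines in B6TC. COL6A1 read 8.84, 8.75 and 8.75 on B6TC arrays, 9.13, 9.10 and 9.05 on MDA-MB-231 arrays and 5.52, 5.68 and 5.80 on ZR-75-1 arrays. COL6A2 read 6.60, 6.47 and 6.60 on B6TC arrays, 7.68, 7.64 and 7.63 on MDA-MB-231 arrays and 5.18, 5.19 and 4.98 on ZR-75-1 arrays. No arrays of different lines overlapped at these probe sets. There B6TC was nearer to MDA-MB-231 at COL6A1 than at COL6A2, an order that other probe sets of these genes did not keep.

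COL6A2 fell by 1.09 relative to MDA-MB-231 (SE 0.064, limma adjusted p = 5.4e-07), a 2.13-fold difference, and exceeded ZR-75-1 by 1.44 (SE 0.064, limma adjusted p = 6.7e-09). Its second probe set, 213290_at, reached 6 on only 2 arrays and differed from MDA-MB-231 by −0.07 in a fit with no filter (SE 0.070, limma adjusted p = 0.487), with overlapping arrays. COL6A1 fell by 0.31 relative to MDA-MB-231 (SE 0.068, limma adjusted p = 0.00252) and exceeded ZR-75-1 by 3.11 (SE 0.068, limma adjusted p = 4.0e-11). All 4 tested COL6A1 probe sets gave the same directions, but the sizes ranged between −1.66 and −0.31 against MDA-MB-231 and between 0.51 and 3.11 against ZR-75-1. Away from the representative probe set, B6TC was not close to MDA-MB-231. It differed from MDA-MB-231 and ZR-75-1 by −1.66 and 0.83 at 212091_s_at, −0.85 and 0.99 at 212937_s_at, and −0.67 and 0.51 at 212940_at. COL6A3, the largest chain of the filament, stayed below the filter at 5.46, 5.23 and 5.41 among B6TC arrays, 5.59, 5.64 and 5.45 among MDA-MB-231 arrays and 3.92, 3.47 and 4.04 among ZR-75-1 arrays. Its B6TC and MDA-MB-231 arrays overlapped, and both lines were above ZR-75-1.

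COL12A1 and COL9A3 belong to the fibril-associated collagens, which sit on the surface of fibrils rather than forming them. COL12A1, the type XII chain that coats collagen I fibrils, was the gene most raised in B6TC over MDA-MB-231 among the representative probe sets. Its probe set 225664_at read 9.42, 9.47 and 9.41 on B6TC arrays, 8.47, 8.23 and 8.30 on MDA-MB-231 arrays and 8.59, 8.59 and 8.64 on ZR-75-1 arrays. B6TC lay above both parental lines, by 1.10 over MDA-MB-231 (SE 0.06, limma adjusted p = 3.5e-07) and by 0.83 over ZR-75-1 (SE 0.06, limma adjusted p = 3.4e-07).

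Probe sets of COL12A1 split in the comparison with ZR-75-1. The excess over MDA-MB-231 was present at all 3 tested probe sets, between 0.64 and 1.10. Probe set 231879_at also lay above ZR-75-1, by 0.36 (SE 0.072, limma adjusted p = 9.0e-04). Probe set 231766_s_at, however, read 7.41, 7.41 and 7.46 on B6TC arrays, 6.71, 6.63 and 6.62 on MDA-MB-231 arrays and 8.40, 8.51 and 8.46 on ZR-75-1 arrays, so that B6TC was below ZR-75-1 by a difference of −1.03 (SE 0.048, limma adjusted p = 9.0e-09). Of 8 genes with several tested probe sets COL12A1 was the only one called in opposite directions between B6TC and ZR-75-1, and 0 were between B6TC and MDA-MB-231. The transcripts that each probe set binds were not examined.

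COL9A3, a chain of the type IX collagen on cartilage fibrils, had the widest excess in ZR-75-1 among the representative probe sets. It read 4.79, 4.86 and 4.76 on B6TC arrays, 4.63, 4.47 and 4.36 on MDA-MB-231 arrays and 7.21, 6.87 and 6.82 on ZR-75-1 arrays. It passed the filter through ZR-75-1 alone, so a difference was built into its being tested. B6TC was lower than ZR-75-1 by a difference of −2.17 (SE 0.10, limma adjusted p = 1.1e-08). Its excess of 0.31 over MDA-MB-231 (SE 0.10, limma adjusted p = 0.0214) lost its call without the second B6TC array and without the second or the third MDA-MB-231 array, at limma adjusted p = 0.066, 0.056 and 0.0821. The related chain COL9A2 averaged 6.02 ± 0.21 among B6TC arrays, 5.80 ± 0.18 among MDA-MB-231 arrays and 6.67 ± 0.016 among ZR-75-1 arrays (SD, n = 3 arrays). Its B6TC and MDA-MB-231 arrays overlapped, and B6TC lay below ZR-75-1 by a difference of −0.65 (SE 0.11, limma adjusted p = 2.4e-04). A second COL9A2 probe set below the filter, 232542_at, was lower in B6TC than MDA-MB-231 with no overlap. With no filter that difference was −0.32 (SE 0.083, limma adjusted p = 0.0142), and the one from ZR-75-1 was −0.17 (limma adjusted p = 0.12).

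COL18A1, a basement membrane collagen with heparan sulfate chains whose end piece is cleaved to endostatin, was below both parental lines. It read 5.73, 5.90 and 5.79 on B6TC arrays, 6.92, 6.81 and 6.74 on MDA-MB-231 arrays and 7.26, 7.16 and 7.02 on ZR-75-1 arrays. No B6TC array reached the filter level, while all arrays of the parental lines did. B6TC fell by 1.02 relative to MDA-MB-231 (SE 0.074, limma adjusted p = 1.9e-06) and by 1.34 relative to ZR-75-1 (SE 0.074, limma adjusted p = 3.7e-08). A second probe set fell by 1.18 (SE 0.15, limma adjusted p = 7.0e-05) relative to MDA-MB-231 and by 1.31 (SE 0.15, limma adjusted p = 1.3e-05) relative to ZR-75-1.

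COL7A1, the chain of the anchoring fibrils that tie epithelium to the dermis, averaged 5.69 ± 0.055 among B6TC arrays, 6.28 ± 0.14 among MDA-MB-231 arrays and 5.05 ± 0.034 among ZR-75-1 arrays (SD, n = 3 arrays). Only MDA-MB-231 carried it past the filter. B6TC differed by −0.59 from MDA-MB-231 (SE 0.068, limma adjusted p = 3.9e-05) and by 0.65 from ZR-75-1 (SE 0.068, limma adjusted p = 7.0e-06). With no filter the gene is represented by its brighter probe set 204136_at, where the B6TC and MDA-MB-231 arrays overlapped and the difference of −0.45 was not called (SE 0.16, limma adjusted p = 0.0636).

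Of the 11 fibrillar genes on the array, 4 were tested. COL27A1, a fibrillar chain of developing cartilage, read 7.31, 7.54 and 7.15 on B6TC arrays, 6.64, 6.68 and 6.62 on MDA-MB-231 arrays and 5.63, 4.85 and 5.46 on ZR-75-1 arrays. The lines did not overlap and B6TC was highest, by 0.68 over MDA-MB-231 (SE 0.17, limma adjusted p = 0.00597) and 2.02 over ZR-75-1 (SE 0.17, limma adjusted p = 1.3e-06). Its probe sets below the filter were not called against MDA-MB-231 in a fit with no filter. They differed by 0.20 at 225288_at (limma adjusted p = 0.273), −0.09 at 225292_at, −0.08 at 230603_at and −0.09 at 1564008_at. COL5A1, which helps set the width of collagen I fibrils, averaged 6.15 ± 0.063 among B6TC arrays, 6.94 ± 0.063 among MDA-MB-231 arrays and 6.39 ± 0.18 among ZR-75-1 arrays (SD, n = 3 arrays). B6TC was lowest, by a difference of −0.79 from MDA-MB-231 (SE 0.084, limma adjusted p = 2.2e-05) and of −0.24 from ZR-75-1 (SE 0.084, limma adjusted p = 0.0228). The call against ZR-75-1 was lost without the first or the second B6TC array or the second ZR-75-1 array, at limma adjusted p = 0.059, 0.0705 and 0.0573. COL11A2 varied little at its tested probe set, with all 9 arrays between 6.06 and 6.32. After repeated quantile normalization it was called between the parental lines (−0.16, limma adjusted p = 0.0411). Its other probe set, 213870_at, stayed below the filter. With no filter B6TC differed there from ZR-75-1 by −0.28 (SE 0.1, limma adjusted p = 0.0417), with overlapping arrays.

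COL1A1, the main chain of collagen I, gave different answers at different probe sets. Its brightest probe set, 217430_x_at, read 7.13, 7.15 and 7.17 on B6TC arrays, 7.15, 7.39 and 7.27 on MDA-MB-231 arrays and 7.06, 7.02 and 7.20 on ZR-75-1 arrays. All lines overlapped there, and neither difference of B6TC passed the test. The name of this probe set ends in _x_at, so its probes may bind other transcripts. No other COL1A1 probe set reached 6 on any B6TC or MDA-MB-231 array. Probe set 1556499_s_at read 4.90, 4.67 and 4.74 on B6TC arrays, 3.58, 3.87 and 3.33 on MDA-MB-231 arrays and 6.99, 7.29 and 7.37 on ZR-75-1 arrays. Probe set 202310_s_at read 4.34, 4.16 and 4.10 on B6TC arrays, 4.44, 4.10 and 4.32 on MDA-MB-231 arrays and 6.50, 6.68 and 6.48 on ZR-75-1 arrays. Both were above the filter in ZR-75-1 alone and set B6TC below ZR-75-1, by −2.44 (SE 0.14, limma adjusted p = 3.8e-08) and −2.35 (SE 0.096, limma adjusted p = 3.2e-09). Between the parental lines the first probe set was called higher in MDA-MB-231, by 0.18 (SE 0.068, limma adjusted p = 0.0341), a call that was lost without the second or the third MDA-MB-231 array or the first or the second ZR-75-1 array (limma adjusted p = 0.135, 0.0686, 0.0895 and 0.113). The others were lower in MDA-MB-231, by −3.62 (SE 0.14, limma adjusted p = 1.8e-09) and −2.27 (SE 0.096, limma adjusted p = 4.2e-09).

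**Figure D2:**
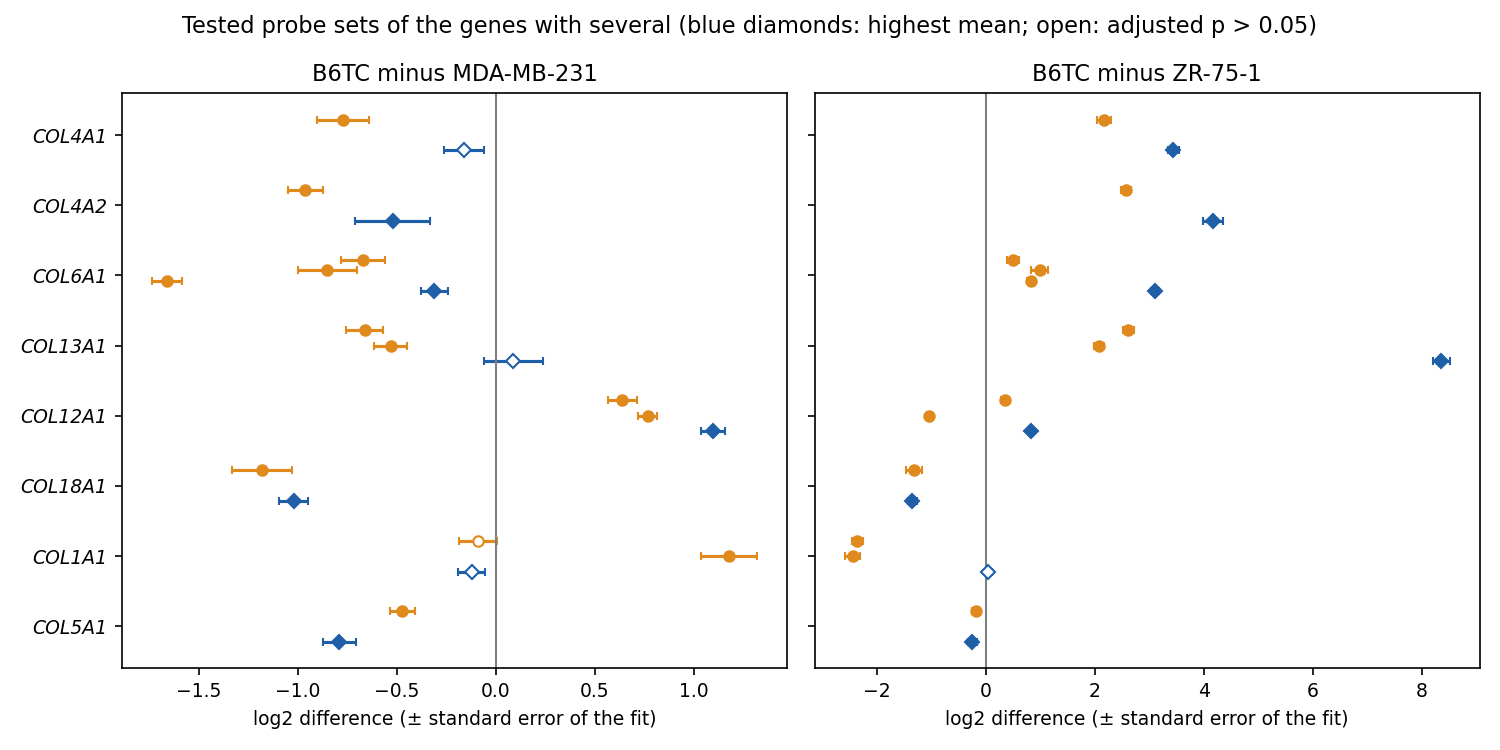
Log2 difference of B6TC, against MDA-MB-231 on the left and ZR-75-1 on the right, at every tested probe set of the 8 collagen genes that have several, with bars of 1 standard error. Blue diamonds are the representative probe sets, orange circles the others, and open symbols were not called. Against ZR-75-1 the COL12A1 probe sets lie on both sides of 0, at −1.03, 0.36 and 0.83, and 2 of the 3 COL1A1 probe sets lie near −2.4.

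**Figure D3:**
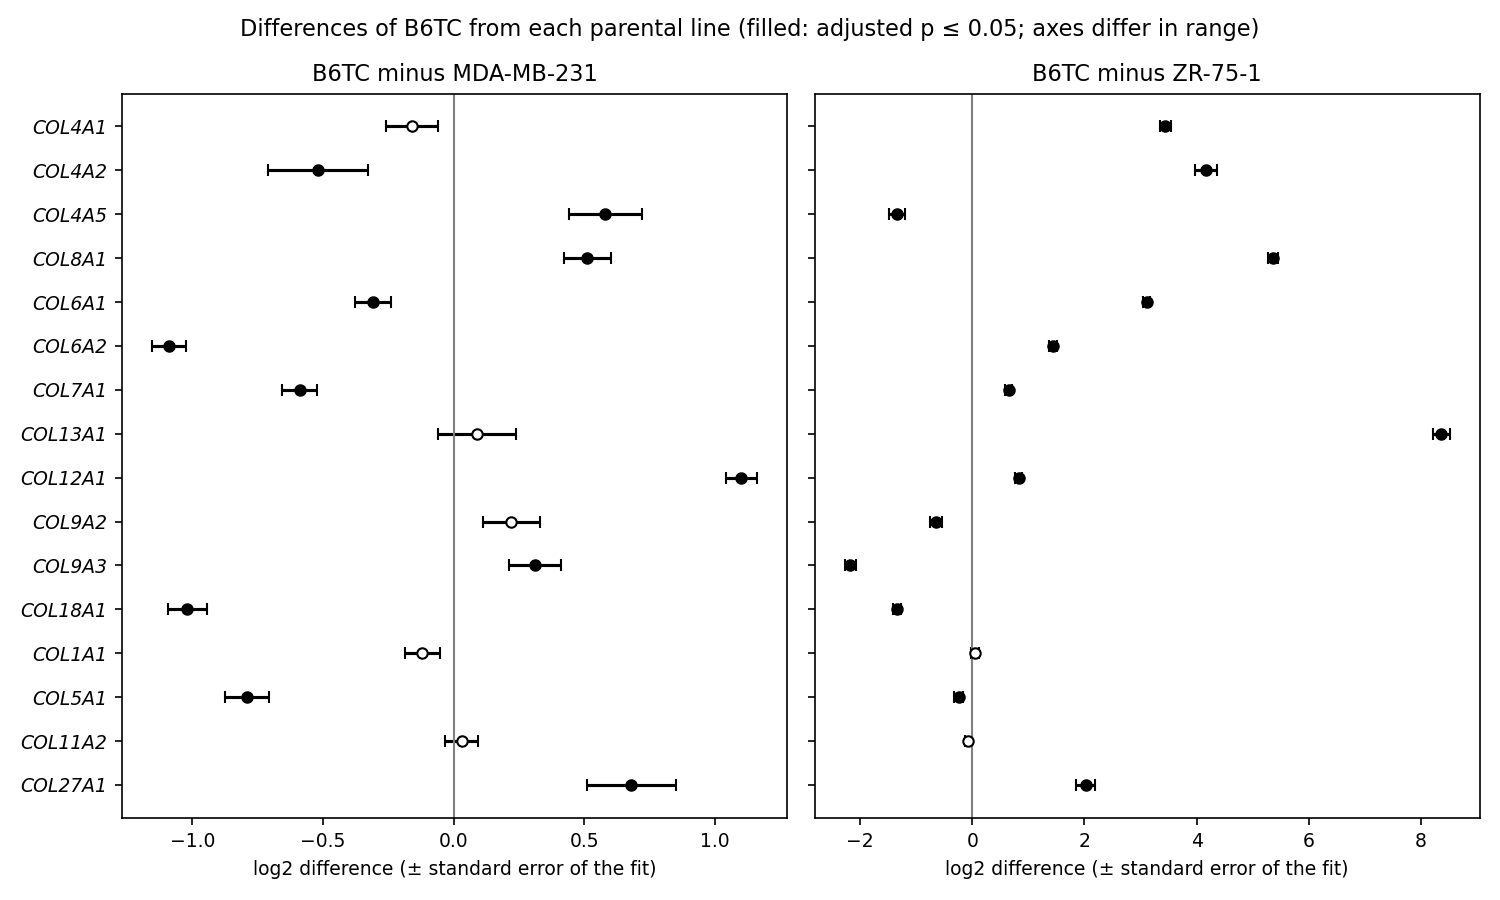
Log2 difference of B6TC, against MDA-MB-231 on the left and ZR-75-1 on the right, at the representative probe set of the 16 genes, with bars of 1 standard error from the limma fit and filled points for differences that were called. Differences from MDA-MB-231 lie between −1.09 and 1.10, and those from ZR-75-1 between −2.17 and 8.36.

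Among the 16 genes B6TC was above both parental lines at 3 (COL12A1, COL27A1 and COL8A1), as were 20.1% of all tested genes, and below both at 2 (COL18A1 and COL5A1), as were 14.6%. COL5A1 left that count where its call against ZR-75-1 was lost, as given above, and COL12A1 was not called against ZR-75-1 as the mean of its probe sets (0.05, limma adjusted p = 0.299). The COL27A1 and COL8A1 probe sets below the filter were not called against MDA-MB-231. All pairs of lines differed at 11 genes, against 49.1% of all genes. For the 7 genes with a parental difference of at least 2, the place of B6TC can be given on a scale that is 0 at the MDA-MB-231 mean and 1 at the ZR-75-1 mean. COL8A1 lay at −0.105, COL13A1 at −0.0112, COL4A1 at 0.0443, COL6A1 at 0.0911, COL4A2 at 0.11, COL9A3 at 0.127 and COL6A2 at 0.432. Thus, at the representative probe sets, 6 of the 7 lay close to the MDA-MB-231 end and COL6A2 near the middle. The other tested COL6A1 probe sets did not place B6TC close to that end, as given above. Other tested probe sets of COL4A1, COL4A2 and COL13A1 also placed B6TC farther from it. Differences from MDA-MB-231 and ZR-75-1 were −0.77 and 2.17 for COL4A1, −0.96 and 2.57 for COL4A2, and −0.53 and 2.08 for COL13A1 at 208535_x_at. COL6A2 lay nearer to that end at 213290_at, below the filter, with −0.07 and 0.48. The places thus depend on the probe set. The median place was 0.0911, with an SD of 0.015 over the B6TC arrays, against 0.0116 over the 1344 genes with such a difference. Without the third B6TC array it was 0.0869, with each gene averaged over its probe sets it was 0.142, and without probe sets ending in _x_at or _s_at, which left 3 genes, it was 0.0443.

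The remaining 27 genes had no probe set past the filter. They were COL1A2, COL2A1, COL3A1, COL4A3, COL4A4, COL4A6, COL5A2, COL5A3, COL6A3, COL6A5, COL6A6, COL8A2, COL9A1, COL10A1, COL11A1, COL14A1, COL15A1, COL16A1, COL19A1, COL20A1, COL21A1, COL22A1, COL23A1, COL24A1, COL25A1, COL26A1 and COL28A1. Their values ran between 2.14 and 6.05, and 19 of the 27 never reached 5 on any array. COL1A2 and COL3A1, which with COL1A1 make the main fibrils of connective tissue, were among them, and neither had a probe set past the filter in any line.

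The filter hides genes that were raised in B6TC from a low level, and 3 such collagens were named after their values were seen. COL3A1, the reticular fiber collagen, read 5.76, 6.01 and 5.92 on B6TC arrays, 4.31, 4.52 and 4.66 on MDA-MB-231 arrays and 3.84, 4.51 and 4.58 on ZR-75-1 arrays. COL5A2, a partner chain of COL5A1, read 5.50, 5.85 and 6.05 on B6TC arrays, 4.66, 4.70 and 4.83 on MDA-MB-231 arrays and 4.57, 4.22 and 4.58 on ZR-75-1 arrays. COL4A6, the head-to-head neighbor of COL4A5, read 4.56, 4.44 and 4.69 on B6TC arrays, 3.06, 3.37 and 3.37 on MDA-MB-231 arrays and 2.91, 3.31 and 3.05 on ZR-75-1 arrays. Each B6TC array lay above all parental arrays at these probe sets.

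With no filter, COL3A1 exceeded MDA-MB-231 by 1.40 (SE 0.17, limma adjusted p = 1.2e-04) and ZR-75-1 by 1.59 (SE 0.17, limma adjusted p = 1.4e-05). COL5A2 exceeded MDA-MB-231 by 1.07 (SE 0.14, limma adjusted p = 1.8e-04) and ZR-75-1 by 1.34 (SE 0.14, limma adjusted p = 9.4e-06). COL4A6 exceeded MDA-MB-231 by 1.30 (SE 0.12, limma adjusted p = 1.7e-05) and ZR-75-1 by 1.47 (SE 0.12, limma adjusted p = 1.1e-06). At least 2-fold above both lines were 104 of the 33518 probe sets set aside, or 0.31%, and these 3 were the collagen ones. A second COL3A1 probe set, 201852_x_at, read 4.40, 4.40 and 4.48 on B6TC arrays, 3.50, 3.75 and 3.53 on MDA-MB-231 arrays and 3.75, 3.25 and 3.40 on ZR-75-1 arrays, again with B6TC on top, and probe set 211161_s_at exceeded MDA-MB-231 by 0.62 and ZR-75-1 by 0.63, both called by limma with no filter. The other COL3A1 probe sets did not, with differences from MDA-MB-231 and ZR-75-1 of −0.15 and −0.11 at 215077_at and of −0.05 and −0.14 at 232458_at, none of them called. The other COL4A6 probe sets, 210945_at and 211473_s_at, differed from MDA-MB-231 by 0.15 and 0.08, neither called, and from ZR-75-1 by 0.29, which was called, and 0.19, which was not. A second COL5A2 probe set, 221730_at, read 4.95, 4.63 and 5.14 on B6TC arrays, 4.27, 4.18 and 4.27 on MDA-MB-231 arrays and 4.18, 3.56 and 3.97 on ZR-75-1 arrays. The summed level of the 7 fibroblast markers was 7.96 to 8.06 on B6TC arrays, below MDA-MB-231 (8.79 to 8.92) and above ZR-75-1 (7.69 to 7.79). THY1 was the highest of these markers in each line, so it weighs most in the sum. It had the same order, at 6.89 on B6TC arrays, 8.25 on MDA-MB-231 arrays and 6.20 on ZR-75-1 arrays. LUM, FAP, DCN and DPT averaged under 6 in each line, and PDGFRA moved with these collagens at its most variable probe set, which averaged 4.20 on B6TC arrays, 2.53 on MDA-MB-231 arrays and 2.33 on ZR-75-1 arrays, but not at its brightest one, which averaged 4.74 on B6TC arrays, 4.73 on MDA-MB-231 arrays and 4.69 on ZR-75-1 arrays. The part of other cells in these values was not tested. Over all 83 collagen probe sets set aside, 15 differed from MDA-MB-231, where 14.6% of such probe sets did, and 28 from ZR-75-1, where 28.3% did.

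**Figure D4:**
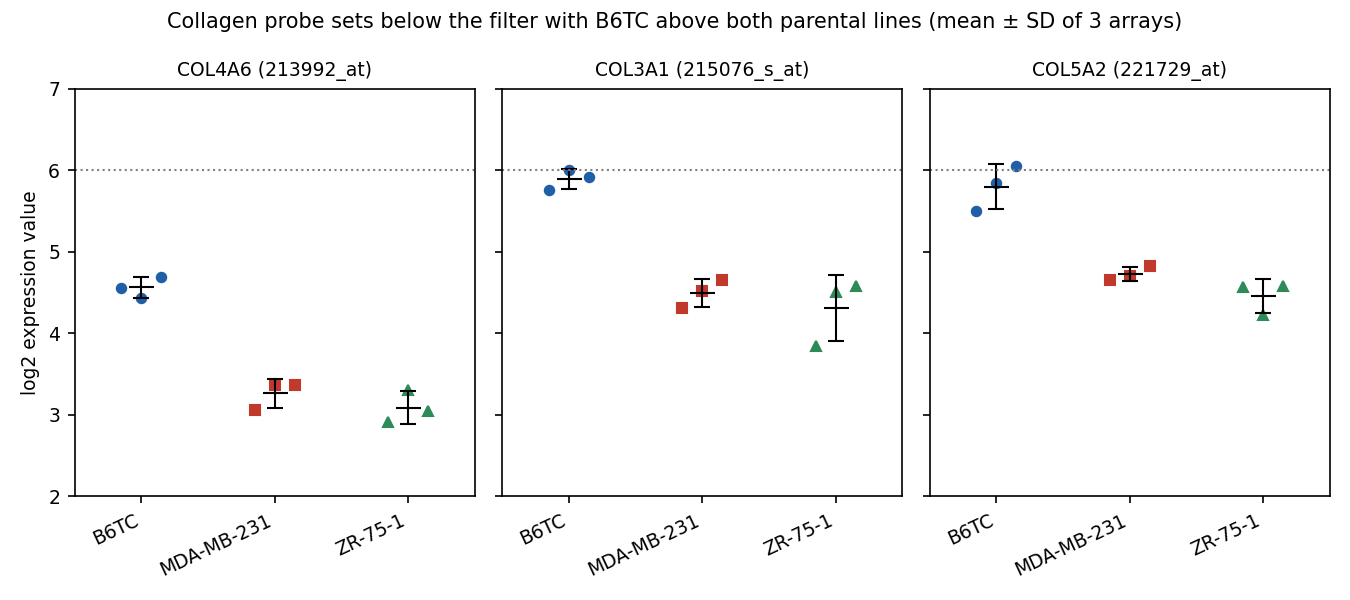
Log2 levels on every array at the 3 collagen probe sets below the filter at which B6TC exceeded each parental line by at least 2-fold, with the line mean and its SD over 3 arrays. The B6TC arrays of COL4A6, COL3A1 and COL5A2 lie above all parental arrays, and few of them reach the filter level of 6.

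Genes for making collagen differed in both directions. The lists of partner genes below are read against the shares of all tested genes, which were 36.5% higher and 28.5% lower than in MDA-MB-231, and 42.8% higher and 41.6% lower than in ZR-75-1. As with the collagens, some members passed the filter through some lines alone, so that a difference was built into their being tested. These include P3H2, LOX, LOXL2, MMP1, TNC, FBN1 and SMAD4, which did so without ZR-75-1. MMP3 and SPARC passed through B6TC alone, and MATN2 and MMP9 through ZR-75-1 alone. Counts over the tested members cannot speak for the lists. Of 27 tested genes for folding, hydroxylation, export, propeptide cleavage and cross-linking, in B6TC 8 exceeded MDA-MB-231 and 12 fell short of it, with a median of −0.06, and 17 were higher and 9 lower than in ZR-75-1, with a median of 0.42. SEC24D, a coat protein of the vesicles that export procollagen, was at a mean of 7.84 among B6TC arrays, 6.34 among MDA-MB-231 arrays and 8.22 among ZR-75-1 arrays. PLOD2, a lysyl hydroxylase, exceeded MDA-MB-231 by 1.36 (SE 0.058, limma adjusted p = 8.8e-08), and P4HA1, a prolyl hydroxylase subunit, fell by 0.76 (SE 0.067, limma adjusted p = 6.1e-06). The cross-linking oxidases LOX and LOXL2 and the prolyl hydroxylase P3H2 exceeded ZR-75-1 by 5.29, 5.90 and 5.85, all called by limma.

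Of 10 listed cell surface receptors for collagen, 5 were tested, and DDR1, DDR2, ITGA11, GP6 and LAIR1 were not among them. All of the tested ones exceeded ZR-75-1 in B6TC, as did 42.8% of all genes, at a median of 2.56. ITGA1 and ITGA10 stayed below the filter level on every ZR-75-1 array, so their excess over that line was built into their being tested. ITGA2, the integrin subunit of the main epithelial collagen receptor, averaged 10.64 among B6TC arrays, 10.26 among MDA-MB-231 arrays and 6.99 among ZR-75-1 arrays. ITGA10 averaged 7.97 among B6TC arrays, 6.75 among MDA-MB-231 arrays and 5.41 among ZR-75-1 arrays, and exceeded MDA-MB-231 by 1.22 (SE 0.06, limma adjusted p = 1.9e-07). ITGA1, which prefers type IV collagen, averaged 6.44 among B6TC arrays, 6.59 among MDA-MB-231 arrays and 3.27 among ZR-75-1 arrays, and its arrays in B6TC and MDA-MB-231 overlapped.

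Of 8 tested genes for collagen breakdown, 4 were higher and 2 lower than in MDA-MB-231 (36.5% and 28.5% of all genes), and 6 were higher and 2 lower than in ZR-75-1 (42.8% and 41.6% of all genes). MMP1, the interstitial collagenase, averaged 13.42 ± 0.013 among B6TC arrays, 7.86 ± 0.14 among MDA-MB-231 arrays and 2.82 ± 0.16 among ZR-75-1 arrays (SD, n = 3 arrays). MMP3, which cleaves type IV collagen, averaged 7.61 ± 0.028 among B6TC arrays, 3.33 ± 0.080 among MDA-MB-231 arrays and 3.07 ± 0.11 among ZR-75-1 arrays (SD, n = 3 arrays). Their differences from MDA-MB-231 were 5.56 for MMP1 and 4.29 for MMP3. An excess of MMP3 in B6TC was built into its being tested, since it passed the filter through B6TC alone. MMP16 fell by 0.28 relative to MDA-MB-231 (SE 0.055, limma adjusted p = 0.00132). PEPD, which splits proline dipeptides, exceeded ZR-75-1 by 1.31, and MMP9 differed between MDA-MB-231 and ZR-75-1 by a difference of −1.13, both called by limma.

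Of 10 tested matrix proteins that bind collagen, 3 were higher and 3 lower than in MDA-MB-231, and 5 higher and 3 lower than in ZR-75-1, near the shares of all genes (36.5% and 28.5%, and 42.8% and 41.6%). SPARC, which binds collagen and aids its deposition, averaged 8.88 ± 0.065 among B6TC arrays, 3.63 ± 0.052 among MDA-MB-231 arrays and 3.08 ± 0.10 among ZR-75-1 arrays (SD, n = 3 arrays). FBN1, the chain of the microfibrils, exceeded MDA-MB-231 by 0.93 (SE 0.14, limma adjusted p = 2.8e-04), and THBS1 fell by 1.32 (SE 0.082, limma adjusted p = 7.3e-07). TNC exceeded ZR-75-1 by 5.83 and MATN2 differed by −5.08, both called by limma.

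Of 16 tested regulators of collagen genes, 4 were higher and 7 lower than in MDA-MB-231, with a median of −0.15, and 11 were higher and 4 lower than in ZR-75-1, with a median of 1.76. Of all genes 36.5% and 28.5%, and 42.8% and 41.6%, did so. The 4 lower calls became 2 without the first or the third B6TC array or the second or the third ZR-75-1 array. The TGF-β receptor TGFBR1 fell by 0.81 relative to MDA-MB-231 (SE 0.058, limma adjusted p = 1.7e-06), and its effector SMAD3 fell by 1.02 (SE 0.049, limma adjusted p = 1.6e-07). CCN1 exceeded MDA-MB-231 by 0.74 (SE 0.048, limma adjusted p = 8.5e-07). CCN2, ETS1 and SMAD4 exceeded ZR-75-1 by 8.84, 7.88 and 6.40, all called by limma. SMAD4 averaged 8.91 among B6TC arrays, 8.64 among MDA-MB-231 arrays and 2.51 among ZR-75-1 arrays.

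**Figure D5:**
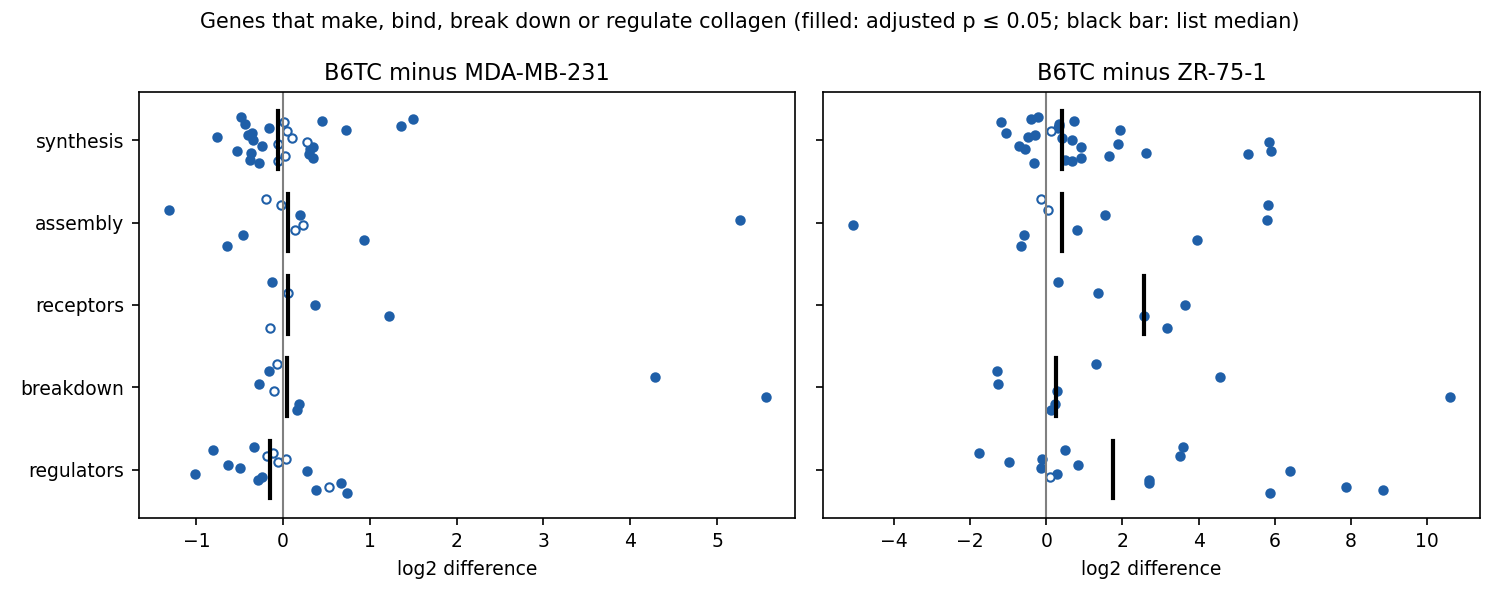
Log2 difference of B6TC, against MDA-MB-231 on the left and ZR-75-1 on the right, for each tested gene of the 5 lists of collagen partners, with the list median as a bar. The medians against MDA-MB-231 lie between −0.15 and 0.06 and those against ZR-75-1 between 0.27 and 2.56.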

How the data were processed

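Total RNA of each line was labeled and hybridized to 3 U133 Plus 2.0 arrays. The authors deposited log2 expression levels. The submitters' processing notes name Affymetrix Expression Console with RMA for them, whereas the methods describe GC-RMA. Versions are not given in the sources used here, and the background correction could not be repeated. Low values are compressed toward background, so a difference from a line near background may be understated or overstated.

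The 62 control probe sets were left out. Symbols came from the platform annotation, and all collagen identifiers were found in the gene table of GRCh38.p14. Probe sets at a log2 level of 6 or more on at least 3 of 9 arrays were fitted by limma 3.58.1 (R 4.3.3) as line means over all arrays together (6 residual and 3.68 prior degrees of freedom), and adjusted by Benjamini and Hochberg within each comparison. The median SD between arrays of a line was 0.064, and 0.094 over the tested collagen probe sets. The number of arrays, and not a read depth, limits the precision. The fit was tested on simulated data.

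The collagen genes, the partner and marker lists and the settings were chosen with earlier results of these data known. Named were collagen genes with a called, non-overlapping difference of at least 1 between any lines, genes with probe sets called in opposite directions, and the 3 partners of each list with the widest difference in each comparison. Classes of collagen were assigned by hand. Promoter stretches came from RefSeq. Alternatives were no filter, a level of 5, a filter that also asks for variation, regression robust to outlying arrays, trended variances, centering, quantile normalization, fits to the lines compared, leaving out probe sets ending in _x_at or _s_at, the mean or the most variable probe set of a gene, a replicate block, a fold minimum of 2, and leaving out each array.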

Additional observations from a re-analysis of the deposited data

How the results depend on the processing

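Of 1029 collagen gene differences recomputed, 967 kept their direction and their side of the threshold, 40 lost their call, 11 gained one and 11 reversed. The reversals were in COL1A1, COL13A1 and COL12A1 and followed the choice of probe set. COL1A1 became 1.18, −2.44 and −3.62 (B6TC minus MDA-MB-231, B6TC minus ZR-75-1, and MDA-MB-231 minus ZR-75-1) with the filter on level and variation or the most variable probe set, and 0.32, −1.58 and −1.90 as the mean of its probe sets. COL13A1 became −0.37 between B6TC and MDA-MB-231 as the mean, and COL12A1 −1.03 between B6TC and ZR-75-1 at its most variable probe set. With no filter, which brings in all 43 genes, 22 genes differed between B6TC and ZR-75-1, 9 of them lower in B6TC. Without probe sets ending in _x_at or _s_at only 8 genes remained, with 6 called between B6TC and MDA-MB-231 (3 higher, 3 lower), 8 between B6TC and ZR-75-1 (2 lower) and 8 between the parental lines (6 higher and 2 lower in MDA-MB-231), and the median place of B6TC between its parents was 0.0443, against 0.142 for the mean of the probe sets. A fold minimum of 2 left 3 genes between B6TC and MDA-MB-231 (1 higher, 2 lower), 3 that were lower in B6TC than ZR-75-1, and 2 lower in MDA-MB-231 than ZR-75-1. Leaving out each array in turn gave 9 to 11, 13 to 14 and 14 to 15 genes in the 3 comparisons in the same order, and a place of 0.0868 to 0.104. Replicate numbers do not pair the arrays, since deviations of arrays with the same number correlated at −0.102 to 0.176, and the replicate block gave 12, 14 and 15 genes, adding COL9A2 (0.22, limma adjusted p = 0.0463). Centering the arrays or repeating the quantile normalization reversed no collagen difference. The level of 6 is a filter setting, the array medians were 4.89 to 4.96, and no background level was measured. Genes well under those medians in a line, such as COL13A1 in ZR-75-1, may lie near background there. That limits how wide a ratio these arrays can resolve.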
